A study of Homo sapiens with 12 samples.

Results

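The genes described here are 40 genes of the NF-kB pathway and of the chemokines and cytokines it is known to control, taken by symbol from the 23228 genes of the deposited count tables. They comprise 5 REL-family subunits, 4 IkB proteins, 6 feedback and signalling proteins, 2 targets that are an adhesion molecule and an enzyme, 6 CXC chemokines, 4 CC chemokines, 7 interleukins, 3 colony-stimulating factors, 2 ligands of the TNF superfamily and 1 soluble cytokine receptor. Of the 40 genes, 23 had enough reads to be tested, 17 had too few, and 2 of these 17 had no read in any library. The 23 passed a filter on low counts in part through the groups in which they were high, so counts over them do not describe all 40 genes.

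The cells were MDA-MB-468, a long-established basal-type line from a triple-negative breast cancer. Poly(A) RNA was sequenced from 12 libraries in 4 groups of 3, lettered A, B and C. The combination group received tazemetostat at 5 µM from day -5 and ipatasertib at 5 µM from day 0. The ipatasertib group received vehicle from day -5 and ipatasertib at 5 µM from day 0, and the tazemetostat group received tazemetostat at 5 µM from day -5. The DMSO group received vehicle only. All groups were kept in medium with 2% serum after day 0 and were collected 24 h later. Ipatasertib inhibits the kinase AKT, and tazemetostat inhibits EZH2, which methylates histone H3 as part of the gene-silencing complex PRC2.

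NF-kB is a family of dimers built from REL-family subunits, which IkB proteins hold in the cytoplasm until an upstream kinase complex marks the IkB protein for destruction. The freed dimers bind kappaB sites near genes for chemokines, cytokines, adhesion molecules and survival proteins, and also near the genes for their own subunits and inhibitors, so that the response limits itself. In breast epithelium the pathway is known for its part in inflammatory and survival signalling, and basal-type tumours often carry a high activity of it.

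Reads counted in genes numbered 12981622 to 17948209 per library with the combination, 18926477 to 25468348 with ipatasertib, 19023947 to 26070000 with tazemetostat and 22682755 to 28746965 with DMSO. A level of 3 reads in a library corresponds to 0.166 to 0.228 CPM, the reads of a gene scaled to library size, with the combination and to 0.106 to 0.136 CPM with DMSO. In all groups library A differed most from the rest, with a chi-square per degree of freedom of 4.36 to 15.5 between A and either of them and of 2.41 to 3.61 between B and C. The share of counted reads assigned to no gene was 25.2% ± 0.952 with the combination, 23.3% ± 1.004 with ipatasertib, 21.1% ± 1.64 with tazemetostat and 19.9% ± 1.43 with DMSO (SD, n = 3), and its part in the results was not tested. All 10 epithelial and basal markers passed the filter, against 4 of 15 leukocyte, 3 of 8 fibroblast and 2 of 7 endothelial markers. Epithelial and basal markers summed to 5780 to 6439 CPM with the combination, 7323 to 7417 CPM with ipatasertib, 5950.0 to 6102 CPM with tazemetostat and 6725 to 7238 CPM with DMSO. Of these 10, 1 rose and 8 fell with the combination, 1 rose and 7 fell with ipatasertib, and 3 rose and 5 fell with tazemetostat. Of all tested genes, 34.4% rose and 30% fell with the combination. The shares were 24% and 23.1% with ipatasertib, and 25.9% and 21.3% with tazemetostat. Leukocyte markers summed to 81.8 to 93.1 CPM with the combination, 82.7 to 106 CPM with ipatasertib, 66.2 to 73.4 CPM with tazemetostat and 84.0 to 89.7 CPM with DMSO. Of the 4 tested ones, 3 rose and 1 fell with the combination against DMSO, CSF1R and PTPRC by at least 2-fold. PTPRC passed the filter only through the combination libraries, so its call cannot be taken as support. Of the 15 leukocyte markers, 5 to 8 had no read in a given group, and CD2 and CD3D had none in any library. Fibroblast markers summed to 11 to 13.4 CPM with the combination, 6.19 to 6.78 CPM with ipatasertib, 16.7 to 20.04 CPM with tazemetostat and 10.8 to 12.5 CPM with DMSO. Endothelial markers summed to 3.90 to 5.21 CPM with the combination, 1.55 to 2.18 CPM with ipatasertib, 1.21 to 1.57 CPM with tazemetostat and 0.636 to 1.10 CPM with DMSO. The endothelial difference came from CDH5, at a mean of 3.82 CPM with the combination and 0.150 CPM with DMSO, while TIE1 had no read. The part of these markers in the results was not tested. Nothing in the labels says whether the lettered libraries are separate cultures. The p-values therefore set differences between groups against the spread among libraries of a group, which may be only technical.

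The stretch upstream of the transcription start is shown for 7 of the genes, because kappaB sites there are how the pathway is known to reach its targets. The sequences are the 250 bases before the start in RefSeq's GRCh38.p14, 5′ to 3′ on the strand of the gene, with matches to the kappaB consensus on either strand in capitals and overlapping matches joined. CXCL1 is on the plus strand (chr4:73869143-73869392), and CXCL2 (chr4:74099196-74099445) and CXCL3 (chr4:74038690-74038939) are on the minus strand of the same chromosome. They encode closely related neutrophil-attracting chemokines that were nearly silent here.
CXCL1: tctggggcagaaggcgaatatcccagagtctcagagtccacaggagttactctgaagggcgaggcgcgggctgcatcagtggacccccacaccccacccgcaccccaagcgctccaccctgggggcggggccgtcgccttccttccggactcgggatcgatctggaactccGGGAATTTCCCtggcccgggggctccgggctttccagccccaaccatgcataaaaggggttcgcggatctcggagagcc
CXCL2: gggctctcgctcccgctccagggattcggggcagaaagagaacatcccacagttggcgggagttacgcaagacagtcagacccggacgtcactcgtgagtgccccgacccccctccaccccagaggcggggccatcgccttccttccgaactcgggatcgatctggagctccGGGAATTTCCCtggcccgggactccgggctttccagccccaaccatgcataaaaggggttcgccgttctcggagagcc
CXCL3: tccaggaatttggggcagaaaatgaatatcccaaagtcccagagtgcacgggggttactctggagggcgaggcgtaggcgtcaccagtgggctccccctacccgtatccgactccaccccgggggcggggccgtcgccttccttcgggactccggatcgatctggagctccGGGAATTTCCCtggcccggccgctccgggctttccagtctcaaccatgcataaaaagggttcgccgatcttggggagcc
NFKBIA (chr14:35404750-35404999, minus strand), NFKBIZ (chr3:101827740-101827989, plus strand) and TNFAIP3 (chr6:137867009-137867258, plus strand) are known targets of the pathway, and all 3 were expressed.
NFKBIA: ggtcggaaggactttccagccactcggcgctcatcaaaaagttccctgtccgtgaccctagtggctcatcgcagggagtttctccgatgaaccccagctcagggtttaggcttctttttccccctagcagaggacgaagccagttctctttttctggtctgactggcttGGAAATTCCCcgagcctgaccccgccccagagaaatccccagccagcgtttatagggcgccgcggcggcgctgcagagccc
NFKBIZ: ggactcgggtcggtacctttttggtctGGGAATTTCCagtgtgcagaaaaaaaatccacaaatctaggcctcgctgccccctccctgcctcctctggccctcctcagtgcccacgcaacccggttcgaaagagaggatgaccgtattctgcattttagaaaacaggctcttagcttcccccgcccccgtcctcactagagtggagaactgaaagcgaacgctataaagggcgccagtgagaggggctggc
TNFAIP3: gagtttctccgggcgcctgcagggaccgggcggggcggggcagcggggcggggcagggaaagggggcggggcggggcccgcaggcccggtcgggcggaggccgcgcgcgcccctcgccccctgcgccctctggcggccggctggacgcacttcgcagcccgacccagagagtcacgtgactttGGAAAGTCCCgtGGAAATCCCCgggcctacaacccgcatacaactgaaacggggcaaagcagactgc
IL22RA2 (chr6:137173645-137173894, minus strand) is shown as the member that fell furthest, and these letters hold no match to the consensus.
IL22RA2: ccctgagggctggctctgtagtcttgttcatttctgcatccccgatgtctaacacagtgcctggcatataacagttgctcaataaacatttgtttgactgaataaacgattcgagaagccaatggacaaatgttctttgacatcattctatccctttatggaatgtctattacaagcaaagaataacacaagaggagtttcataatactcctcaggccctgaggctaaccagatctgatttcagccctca
The 3 CXCL promoters carry the same site, GGGAATTTCC, 79, 78 and 79 bases before the start in CXCL1, CXCL2 and CXCL3, and CXCL5 carries it 91 bases before. Aligned end to end, the CXCL1 promoter was 81.4% identical to that of CXCL3, 68% to that of CXCL2 and 50.7% to that of CXCL5. The transcripts of such close copies can share reads, so their counts are uncertain. Promoters were available for 31 of the 40 genes, and 15 of these held at least 1 match, against 5.21% of 35116 RefSeq promoters of the same length. The matches were in 6 of the 17 tested genes with a promoter and in 9 of the 14 untested ones. In these data, then, most of the promoters with a match belonged to genes with too few reads to test: CXCL1, CXCL2, CXCL3, CXCL5, CXCL10, CCL20, IL6, IL32 and LTB. A match is a run of letters and does not show that a factor binds there.

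Each drug and the combination changed a large part of these genes, as they did of all genes. Tests are edgeR's quasi-likelihood test with Benjamini-Hochberg adjustment over 14571 genes, and a gene is said to have risen or fallen where the adjusted p was under 0.05. With the combination, 12 of the 23 tested genes rose and 5 fell against DMSO, beside 64.4% of all tested genes called in either direction (34.4% higher and 30% lower). With ipatasertib alone, 12 rose and 4 fell, beside 47.1% of all genes called (24% higher and 23.1% lower). With tazemetostat alone, 6 rose and 4 fell, beside 47.2% called (25.9% higher and 21.3% lower). The tazemetostat count is near the share of all genes called, and the 12 risen genes with ipatasertib are a larger share than among all genes, a difference that was not tested. The median log2 fold change over the 23 genes was 0.20 with the combination, 0.26 with ipatasertib and 0.05 with tazemetostat, against 0.0305, 0.00386 and 0.00899 over all tested genes. A fold of at least 2 was reached by 5 genes that rose and 1 that fell with the combination. Tazemetostat gave 3 and 1, and none of the 16 called with ipatasertib reached it. Of all 14571 tested genes, 1860 rose and 426 fell by that much with the combination. The counts over all genes were 1245 and 80 with tazemetostat and 479 and 209 with ipatasertib. The 5 risen genes include CCL2 and IL1A, which passed the filter only through the combination libraries. Against ipatasertib alone, the combination raised 8 and lowered 5, beside 44.9% of all genes called. Against tazemetostat alone it raised 11 and lowered 3, beside 46.3%. CCL2 and IL1A are among these 8 and 11 raised genes and among the 12 that rose over DMSO. Because of how they passed the filter, they cannot be taken as support in any of these counts. Without the A libraries the combination gave 11 higher and 5 lower against DMSO, ipatasertib 11 and 3, and tazemetostat 7 and 5. Over all genes that fit called 9732, 7185 and 8126, against 9389, 6864 and 6874 with all libraries. The 3 comparisons with DMSO share the same DMSO libraries. In bulk RNA, a change in the number of cells that express a gene and a change in RNA per cell cannot be told apart.

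**Figure D1:**
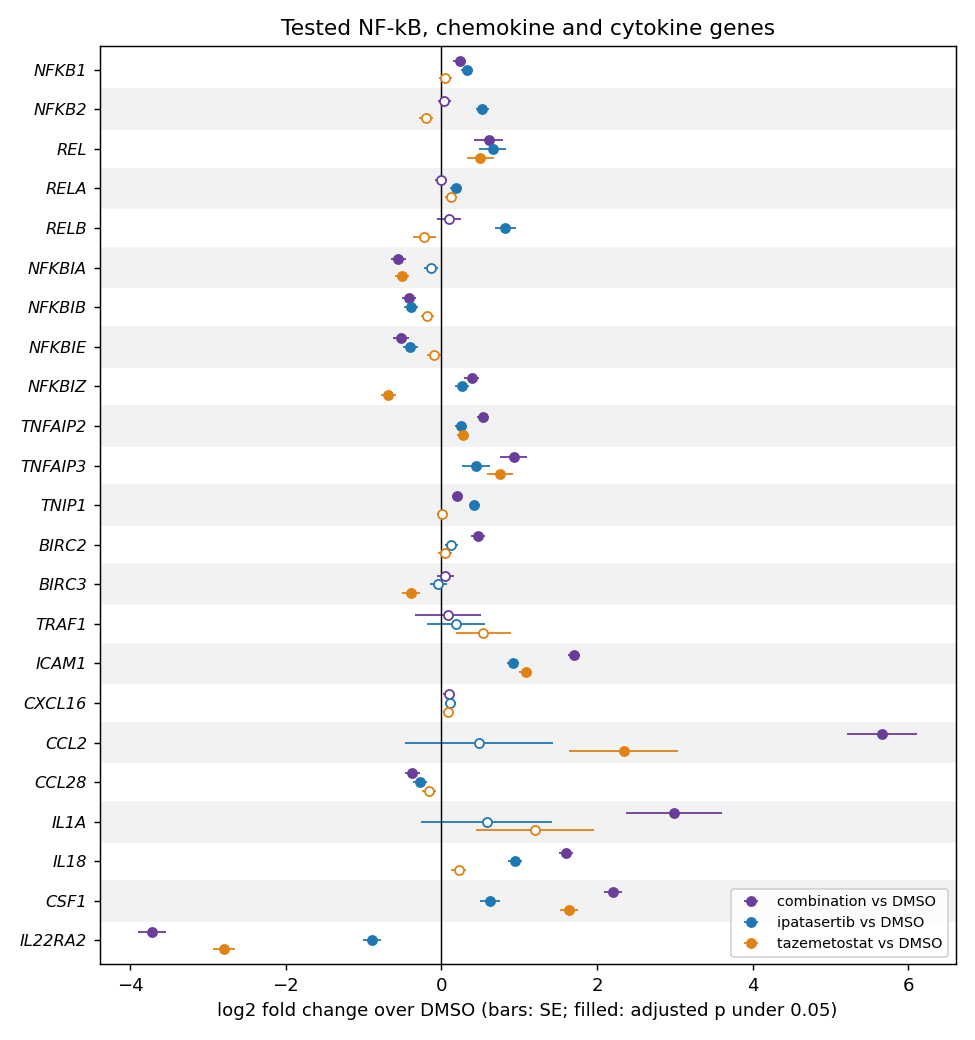
Log2 fold change over DMSO of the 23 tested genes, with the combination, ipatasertib and tazemetostat as points, the SE as bars, and filled points where the adjusted p was under 0.05. Most points lie between -1 and 1, and CCL2 (5.66) and IL22RA2 (-3.72) with the combination lie furthest out.

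All 5 REL-family genes rose with ipatasertib, beside 24% of all tested genes. RELB and NFKB2, the subunits of the non-canonical pathway, were lower with the combination than with ipatasertib alone. RELB, which encodes the subunit that pairs with the product of NFKB2, was at 6.48, 5.23 and 4.74 CPM with the combination in libraries A, B and C, 8.23, 9.39 and 9.70 CPM with ipatasertib, 3.41, 4.71 and 5.03 CPM with tazemetostat, against 5.53, 5.27 and 4.67 CPM with DMSO. The 3 ipatasertib libraries were above all the others, and the combination libraries overlapped those with DMSO. RELB rose with ipatasertib (log2 fold change 0.82 ± 0.136 SE, adjusted p = 3.84e-05) and was lower with the combination than with ipatasertib (-0.72 ± 0.146, adjusted p = 0.000379). NFKB2, which encodes the p100 precursor of p52, was at 23.3, 19.2 and 19.9 CPM with the combination, 28.7, 29.7 and 29.3 CPM with ipatasertib, 17.1, 17.6 and 18.5 CPM with tazemetostat, against 21.2, 20.8 and 19.0 CPM with DMSO. Again the ipatasertib libraries stood above every other, and the combination overlapped DMSO. NFKB2 rose with ipatasertib (0.52 ± 0.084, adjusted p = 2.5e-05) and was lower with the combination than with ipatasertib (-0.48 ± 0.087, adjusted p = 0.000101). It was higher with the combination than with tazemetostat (0.24, adjusted p = 0.0356), a call lost without Combination A (adjusted p = 0.237), Tazemetostat A or B (0.0733 and 0.0778), Ipatasertib B (0.0511) or DMSO B (0.0529), and without all A libraries (0.304).

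The other 3 subunits belong to the canonical pathway. NFKB1, which encodes the p105 precursor of p50, was at 42.4, 45.0 and 51.4 CPM with the combination, 54.2, 46.8 and 47.0 CPM with ipatasertib, 38.6, 42.1 and 41.3 CPM with tazemetostat, against 38.9, 39.0 and 39.9 CPM with DMSO. Every combination and ipatasertib library lay above every DMSO library. NFKB1 rose with ipatasertib (0.33, adjusted p = 0.00186) and with the combination (0.24, adjusted p = 0.0166), the second call being lost without Combination C (0.135), DMSO A (0.0776) or DMSO B (0.0552). REL, which encodes the c-Rel subunit, was at 4.32, 3.41 and 4.95 CPM with the combination, 5.05, 3.04 and 4.93 CPM with ipatasertib, 3.88, 3.81 and 4.12 CPM with tazemetostat, against 2.94, 2.77 and 2.63 CPM with DMSO. All treated libraries were above all DMSO libraries, with library B the lowest of the combination and ipatasertib groups. REL rose with the combination (0.61, adjusted p = 0.00673), with ipatasertib (0.66, adjusted p = 0.00325) and with tazemetostat (0.50, adjusted p = 0.0231). The tazemetostat call was lost without Tazemetostat C (0.0794), DMSO B (0.0563) or DMSO C (0.081).

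RELA, which encodes the p65 subunit, was at 118, 104 and 104 CPM with the combination, 125, 117 and 131 CPM with ipatasertib, 105, 128 and 122 CPM with tazemetostat, against 113, 105 and 109 CPM with DMSO. The combination overlapped DMSO, and the ipatasertib libraries lay above DMSO by a narrow margin. Its rise with ipatasertib was small (0.19, adjusted p = 0.0475). The call rested on all of the ipatasertib and DMSO libraries except Ipatasertib B. It was lost without Ipatasertib A (0.141), Ipatasertib C (0.178), DMSO A (0.077), DMSO B (0.173), DMSO C (0.109), Tazemetostat B (0.0581), Tazemetostat C (0.0858) or Combination C (0.0522). It was also lost with DESeq2 (0.0526) and with the replicate letter as a block (0.0799). In all, ipatasertib raised 5 of the 5 subunits, the combination raised 2 (NFKB1 and REL) and tazemetostat raised 1 (REL). Of all tested genes, 24%, 34.4% and 25.9% rose in these comparisons. The combination and tazemetostat counts are thus near the share of all genes.

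Of the IkB genes, 3 inhibitors fell with the combination and NFKBIZ rose, beside 30% of all tested genes that fell and 34.4% that rose. NFKBIA, which encodes IkB-alpha, the inhibitor made fastest in response to NF-kB itself, was at 22.6, 20.1 and 22.3 CPM with the combination, 27.0, 31.3 and 29.0 CPM with ipatasertib, 25.8, 19.7 and 22.2 CPM with tazemetostat, against 30.0, 33.2 and 32.7 CPM with DMSO. The combination and tazemetostat libraries were all below those with DMSO, and the ipatasertib libraries overlapped them. NFKBIA fell with the combination (-0.56 ± 0.097, adjusted p = 3.21e-05) and with tazemetostat (-0.51 ± 0.093, adjusted p = 0.000123), and ipatasertib gave -0.14 (adjusted p = 0.237). NFKBIB, which encodes IkB-beta, was at 102, 78.1 and 78.4 CPM with the combination, 82.0, 88.0 and 94.6 CPM with ipatasertib, 94.6, 105 and 106 CPM with tazemetostat, against 108, 118 and 121 CPM with DMSO. All treated libraries were below all DMSO libraries, and Combination A was well above Combination B and C. NFKBIB fell with the combination (-0.42, adjusted p = 0.000337) and with ipatasertib (-0.39, adjusted p = 0.00109), and tazemetostat gave -0.18 (adjusted p = 0.101). It was lower with the combination than with tazemetostat (-0.24, adjusted p = 0.0336), which was lost without Combination B (0.165), Combination C (0.167), Tazemetostat B (0.0786) or Tazemetostat C (0.104).

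NFKBIE, which encodes IkB-epsilon, was at 11.03, 10.85 and 10.66 CPM with the combination, 11.2, 11.1 and 13.1 CPM with ipatasertib, 16.1, 13.8 and 14.0 CPM with tazemetostat, against 16.3, 14.9 and 15.4 CPM with DMSO. The combination and ipatasertib libraries were all below DMSO, and tazemetostat overlapped it. NFKBIE fell with the combination (-0.52, adjusted p = 0.000117) and with ipatasertib (-0.40, adjusted p = 0.00158), and tazemetostat gave -0.09. NFKBIZ, which encodes the nuclear co-factor IkB-zeta that helps p50 dimers to switch on a subset of cytokine genes, went the opposite way to them with ipatasertib and with the combination. It was at 52.4, 68.9 and 57.7 CPM with the combination, 57.3, 56.3 and 49.9965 CPM with ipatasertib, 26.1, 27.0 and 31.6 CPM with tazemetostat, against 42.7, 48.3 and 45.3 CPM with DMSO. The tazemetostat libraries lay below all others, and the combination libraries lay above those with DMSO. NFKBIZ rose with the combination (0.39, adjusted p = 0.00113) and fell with tazemetostat (-0.68 ± 0.097, adjusted p = 5.57e-06). The rise with ipatasertib (0.26, adjusted p = 0.0246) was lost without Ipatasertib A (0.14), Ipatasertib B (0.0948), DMSO A (0.135) or DMSO C (0.0681). Between the combination and tazemetostat the difference was 1.07 ± 0.098 (adjusted p = 1.1e-08).

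**Figure D2:**
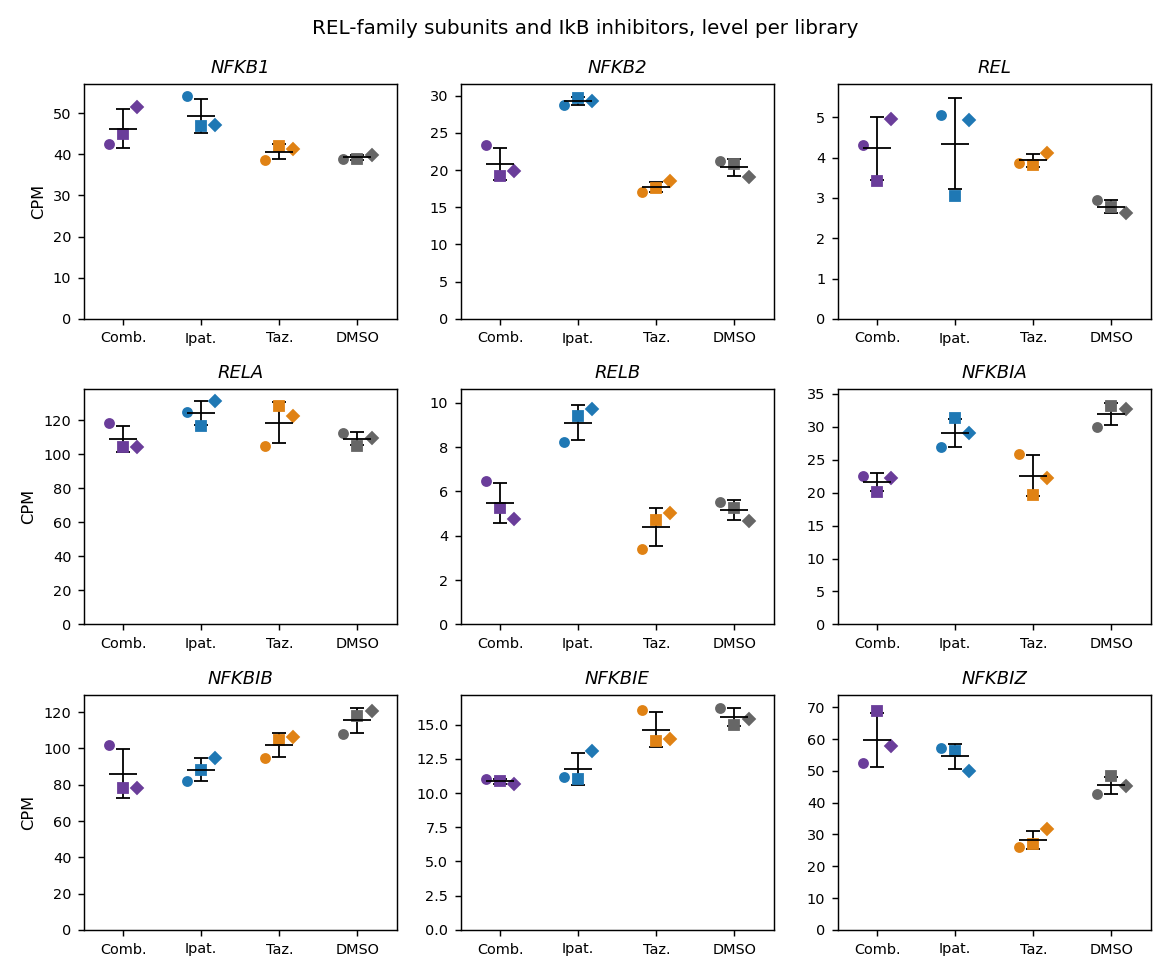
Level in CPM of the 5 REL-family and 4 IkB genes in each library (circle A, square B, diamond C), with the group mean and SD (n = 3), for the combination, ipatasertib, tazemetostat and DMSO. RELB and NFKB2 are highest in the 3 ipatasertib libraries, and NFKBIZ is lowest in the 3 tazemetostat libraries.

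Among the 6 feedback and signalling genes, 4 rose with the combination, beside 34.4% of all tested genes. TNFAIP3, which encodes the ubiquitin-editing inhibitor A20, was at 3.99, 3.56 and 3.90 CPM with the combination, 2.57, 2.67 and 2.96 CPM with ipatasertib, 3.09, 4.15 and 2.87 CPM with tazemetostat, against 1.88, 2.23 and 1.96 CPM with DMSO. Every treated library was above every DMSO library. It rose with the combination (0.93 ± 0.177, adjusted p = 9.5e-05) and with tazemetostat (0.75, adjusted p = 0.000858). The rise with ipatasertib (0.44, adjusted p = 0.0419) was lost without any 1 of the 3 ipatasertib libraries (A 0.0653, B 0.0703, C 0.143) or without DMSO A (0.138) or DMSO C (0.106), and with the replicate letter as a block (0.0535). The difference between the combination and ipatasertib (0.48, adjusted p = 0.0264) was lost without Ipatasertib A (0.0706), Ipatasertib B (0.0656), Combination A (0.0776) or Combination C (0.0653). TNFAIP2, a target of TNF in endothelium and myeloid cells, averaged 42.4 ± 2.67 CPM with the combination, 34.7 ± 1.15 with ipatasertib, 35.3 ± 1.66 with tazemetostat and 29.3 ± 1.43 with DMSO (SD, n = 3). It rose in all 3 comparisons with DMSO, by 0.54 with the combination (adjusted p = 2.48e-06), 0.25 with ipatasertib and 0.27 with tazemetostat, the ipatasertib call being lost without DMSO A (0.0682).

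TNIP1, which encodes a partner of A20, averaged 114 ± 10.3 CPM with the combination, 133 ± 1.16 with ipatasertib, 99.7 ± 7.10 with tazemetostat and 99.1 ± 1.84 with DMSO (SD, n = 3). As with RELB and NFKB2, its highest level was with ipatasertib alone (0.42 ± 0.071 over DMSO, adjusted p = 4.07e-05), and it was lower with the combination than with ipatasertib (-0.22, adjusted p = 0.0142). That difference was lost without Combination B (0.0692) or C (0.0765). The smaller rise with the combination over DMSO (0.20, adjusted p = 0.0175) was lost without Combination A (0.204), DMSO A (0.0969) or DMSO B (0.058). The rise over tazemetostat (0.19, adjusted p = 0.0316) was lost without Combination A (0.2), Tazemetostat A (0.0989), Tazemetostat C (0.0954), DMSO B (0.0519) or DMSO C (0.0506). The inhibitor-of-apoptosis gene BIRC2 averaged 113 ± 11.1 CPM with the combination, 89.6 ± 6.56 with ipatasertib, 84.6 ± 10.2 with tazemetostat and 81.8 ± 2.07 with DMSO, and rose with the combination only among the 3 comparisons with DMSO (0.47 ± 0.086, adjusted p = 5.66e-05). It was also higher with the combination than with ipatasertib (0.34, adjusted p = 0.00264) and than with tazemetostat (0.42, adjusted p = 0.000349). Its paralogue BIRC3 averaged 19.5 ± 1.73 CPM with the combination, 18.2 ± 2.19 with ipatasertib, 14.4 ± 2.43 with tazemetostat and 18.7 ± 0.882 with DMSO. BIRC3 fell with tazemetostat (-0.39 ± 0.111, adjusted p = 0.00635), from which the combination differed by 0.44 ± 0.116 (adjusted p = 0.00355). TRAF1, an adaptor of TNF receptors, stayed under 1 CPM in every group mean and passed no test, with a 95% interval of -0.88 to 1.06 for the combination.

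The largest changes were in genes for secreted or surface proteins. ICAM1, which encodes the adhesion molecule that leukocytes bind through their integrins, was at 69.0, 62.1 and 62.7 CPM with the combination, 35.5, 36.1 and 41.2 CPM with ipatasertib, 40.7, 42.3 and 43.1 CPM with tazemetostat, against 20.7, 19.9 and 19.1 CPM with DMSO. No combination library overlapped another group, and no DMSO library overlapped a treated one. ICAM1 rose with the combination (1.70 ± 0.080, adjusted p = 4.16e-14), with ipatasertib (0.92 ± 0.080, adjusted p = 5.86e-09) and with tazemetostat (1.08 ± 0.079, adjusted p = 2.3e-10). CSF1, which encodes the growth and survival factor of macrophages, was at 30.0, 26.0 and 24.9 CPM with the combination, 9.84, 8.49 and 8.79 CPM with ipatasertib, 16.1, 20.6 and 17.96 CPM with tazemetostat, against 6.63, 5.50 and 5.41 CPM with DMSO. The 4 groups did not overlap, in the order combination, tazemetostat, ipatasertib, DMSO. CSF1 rose with the combination (2.20 ± 0.117, adjusted p = 4.12e-13), with tazemetostat (1.64 ± 0.117, adjusted p = 1.52e-10) and less with ipatasertib (0.63 ± 0.126, adjusted p = 0.000312).

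IL18, which encodes a cytokine that epithelium stores as an inactive precursor, was at 50.3, 53.9 and 49.7 CPM with the combination, 30.1, 34.2 and 33.6 CPM with ipatasertib, 23.2, 18.4 and 18.05 CPM with tazemetostat, against 16.8, 17.4 and 16.6 CPM with DMSO. The combination libraries were above all others and the ipatasertib libraries above those with tazemetostat and DMSO. IL18 rose with the combination (1.60 ± 0.092, adjusted p = 1.49e-12) and with ipatasertib (0.94 ± 0.091, adjusted p = 3.49e-08), and tazemetostat gave 0.22 ± 0.094 (adjusted p = 0.0573). IL22RA2, which encodes a soluble receptor that binds and neutralises interleukin-22, was at 0.776, 1.52 and 1.32 CPM with the combination, 7.10, 9.02 and 8.91 CPM with ipatasertib, 2.25, 2.02 and 2.41 CPM with tazemetostat, against 15.2, 14.9 and 16.1 CPM with DMSO. The groups did not overlap, and the order was the reverse of that of CSF1. IL22RA2 fell by 3.72 on the log2 scale with the combination (adjusted p = 4.41e-14), by 2.79 with tazemetostat (adjusted p = 3.74e-13) and by 0.89 with ipatasertib (adjusted p = 1.86e-06). Its neighbour on chromosome 6 in the RefSeq order, IFNGR1, which encodes a subunit of the interferon-gamma receptor, averaged 102 CPM with the combination, 170 with ipatasertib, 95.5 with tazemetostat and 167 with DMSO. IFNGR1 fell by 0.80 with tazemetostat (adjusted p = 5.37e-08), while TNFAIP3, further along the same stretch, rose.

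The low genes CCL2 and IL1A were called mainly with the combination. They are named here after their values were seen because they lie under the 5 CPM used for naming. Both passed the filter on low counts only through the combination libraries, the group in which they were high. Their calls with the combination therefore cannot be taken as support. CCL2, which encodes the chemokine that draws monocytes, had 57, 33 and 43 reads with the combination, 0, 2 and 3 with ipatasertib, 5, 10 and 5 with tazemetostat, against 3, 1 and 0 with DMSO. In CPM it averaged 2.89 ± 0.341 with the combination, 0.0750 ± 0.0652 with ipatasertib, 0.281 ± 0.0841 with tazemetostat and 0.0506 ± 0.0531 with DMSO (SD, n = 3). Every combination library was above every other library. CCL2 rose with the combination over DMSO (5.66 ± 0.444, adjusted p = 2.86e-10), ipatasertib (5.18, adjusted p = 2.06e-09) and tazemetostat (3.32, adjusted p = 4.21e-08). Its rise with tazemetostat alone (2.34 ± 0.702, adjusted p = 0.00894) was lost without Tazemetostat B (0.0524) or DMSO C (0.05). IL1A, which encodes interleukin-1 alpha, had 14, 8 and 8 reads with the combination, 6, 0 and 2 with ipatasertib, 3, 3 and 7 with tazemetostat, against 4, 1 and 1 with DMSO. In CPM the combination libraries again lay above every other library. IL1A rose with the combination over DMSO (2.99 ± 0.617, adjusted p = 0.000225), over ipatasertib (2.41, adjusted p = 0.002) and over tazemetostat (1.79, adjusted p = 0.00848). The other tested chemokines moved little: CCL28, a mucosal epithelial chemokine, fell with the combination (-0.38, adjusted p = 0.00156) and with ipatasertib (-0.28, adjusted p = 0.0157, lost without DMSO A at 0.092). CXCL16, a membrane-bound chemokine and scavenger receptor, averaged 37.4 ± 2.89 CPM with the combination and 35.0 ± 1.26 CPM with DMSO and passed no test, with a 95% interval of -0.07 to 0.27.

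**Figure D3:**
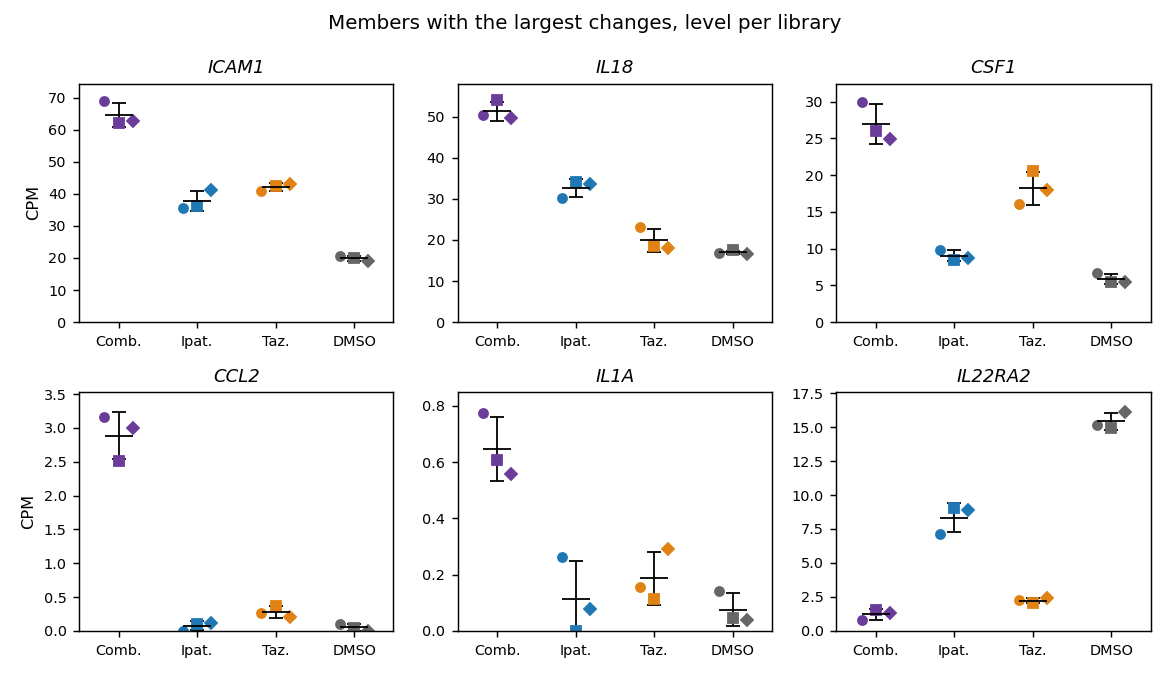
Level in CPM of ICAM1, IL18, CSF1, CCL2, IL1A and IL22RA2 in each library (circle A, square B, diamond C), with the group mean and SD (n = 3), for the combination, ipatasertib, tazemetostat and DMSO. The combination libraries are the highest of all in 5 panels and the lowest in the IL22RA2 panel.

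An interaction term tested whether both drugs together gave more or less than their single effects added up on the log2 scale. Of the 23 genes, 2 passed with a positive interaction and 0 with a negative one by edgeR, beside 12% of all tested genes (5.96% positive and 6.01% negative). At an unadjusted p under 0.05, 5 were positive and 6 negative. The share of all genes at that unadjusted threshold was not counted, so these 2 counts cannot be read as an excess. DESeq2 called 1 member negative, beside 1106 positive and 1090 negative calls over all genes. NFKBIZ had an interaction of 0.81 ± 0.136 (adjusted p = 0.00108): tazemetostat lowered it by itself, while the combination differed from ipatasertib by 0.13 (adjusted p = 0.29). IL18 had an interaction of 0.43 ± 0.129 (adjusted p = 0.0332). The IL18 call was lost without Ipatasertib A (0.0734), Ipatasertib C (0.0549), Tazemetostat B (0.0876), Tazemetostat C (0.0928), Combination B (0.096), DMSO A (0.0519), DMSO B (0.0832) or DMSO C (0.0735). CSF1 (-0.06, 95% interval -0.44 to 0.31) and IL22RA2 (-0.04, 95% interval -0.61 to 0.54) gave no departure that the test could detect, with intervals that allow a modest one.

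The count of negative interactions varied with the libraries and settings used. Without the A libraries, 5 genes had a negative interaction: RELA (-0.47, adjusted p = 5.58e-05), RELB (-0.92, adjusted p = 0.000999), NFKB2 (-0.45, adjusted p = 0.00476), TNIP1 (-0.33, adjusted p = 0.00172) and ICAM1 (-0.45, adjusted p = 0.00136). With all libraries these were RELA -0.31, RELB -0.50, NFKB2 -0.29, TNIP1 -0.23 and ICAM1 -0.30, with adjusted p of 0.0642, 0.116, 0.125, 0.129 and 0.0731. Leaving out Combination A alone gave 5 negative members, Tazemetostat A alone 4, and Ipatasertib B alone 1 (REL, adjusted p = 0.0344), while leaving out Ipatasertib A or DMSO A gave 0. Over all genes, the negative calls numbered 1611 without Combination A, 1819 without Tazemetostat A and 853 without Ipatasertib B. They numbered 382 without Ipatasertib A and 664 without DMSO A, against 875 with all libraries. With all libraries, RELA passed with library totals (0.0348), DESeq2 (0.0414) and no filter (0.0257), and ICAM1 with library totals (0.0383). The fit without the A libraries gave positive interactions for BIRC2 (0.44, adjusted p = 0.000146) and BIRC3 (0.55, adjusted p = 0.00186), against 0.29 (adjusted p = 0.109) and 0.48 (adjusted p = 0.0512) with all libraries. It also kept NFKBIZ (0.93, adjusted p = 1.26e-06) and IL18 (0.51, adjusted p = 0.000717). With all libraries, BIRC3 also passed with RLE factors (0.0499), DESeq2 (0.0313) and no filter (0.0149). BIRC2 and BIRC3 passed without Tazemetostat A alone (0.00864 and 0.00317) or Combination A alone (0.019 and 0.0219). BIRC3 passed without Ipatasertib B alone (0.0409). Without the A libraries, 5447 of all 14571 tested genes passed the interaction test, against 1744 with all libraries. Of these, 2611 were positive and 2836 negative, against 869 and 875 with all libraries. The member counts without the A libraries are thus near the share of all genes in both directions.

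Most of the genes for classical inflammatory signals were silent or nearly so in all groups. IL7 and CSF3, which encode growth factors of lymphocytes and of neutrophils, had no read in any library, and CSF2, a growth factor of myeloid cells, had 1 read in Tazemetostat C. TNF, the prototype inducer of the pathway, had 2, 4 and 1 reads with the combination, 3, 2 and 9 with ipatasertib, 0, 3 and 1 with tazemetostat and 3, 2 and 1 with DMSO. CXCL1 had 1, 2 and 1 reads with the combination, 1, 0 and 5 with ipatasertib, 0, 0 and 3 with tazemetostat and 1, 0 and 1 with DMSO. CXCL2 and CXCL3 had 2 to 9 and 2 to 13 reads in a library, with all groups overlapping. The kappaB sites of the CXCL promoters shown above thus stand before genes that gave at most 13 reads in any library. CXCL5, CXCL10, CCL5, CCL20, IL6 and IL32 were as low, with at most 8 reads in a library. For IL6 the ratio of the combination to DMSO was 3.39, on 10 and 5 reads over 3 libraries, with a 95% counting interval of 1.05 to 12.6, and it did not pass edgeR's test in a fit without the filter on low counts (adjusted p = 0.12).

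A few of these low genes were not spread evenly over the groups. PTGS2, which encodes the inducible cyclooxygenase that makes prostaglandins, had 7, 0 and 3 reads with the combination, 6, 4 and 6 with tazemetostat and none in the ipatasertib or DMSO libraries. Against a floor of 3 reads over the DMSO group it was at least 5.64-fold higher with the combination and at least 5.89-fold higher with tazemetostat. IL1B, which encodes interleukin-1 beta, had 1, 2 and 5 reads with the combination and none with DMSO, at least 4.52-fold higher on the same floor. IL11, a cytokine of the interleukin-6 family, had 1, 2 and 7 reads with tazemetostat, against 18, 7 and 12 with DMSO, a ratio of 0.298 (95% counting interval 0.132 to 0.612). LTB, which encodes the membrane anchor of lymphotoxin, had 12, 6 and 9 reads with ipatasertib, against 1, 2 and 7 with DMSO, a ratio of 3.11 (1.46 to 7.20). Intervals and floors cover counting error only. In a fit without the filter on low counts, over 19877 genes, edgeR's adjusted p was 0.000836 for PTGS2 with the combination, 0.000378 for PTGS2 and 0.00688 for IL11 with tazemetostat, 0.00400 for IL1B with the combination and 0.0257 for LTB with ipatasertib.

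**Figure D4:**
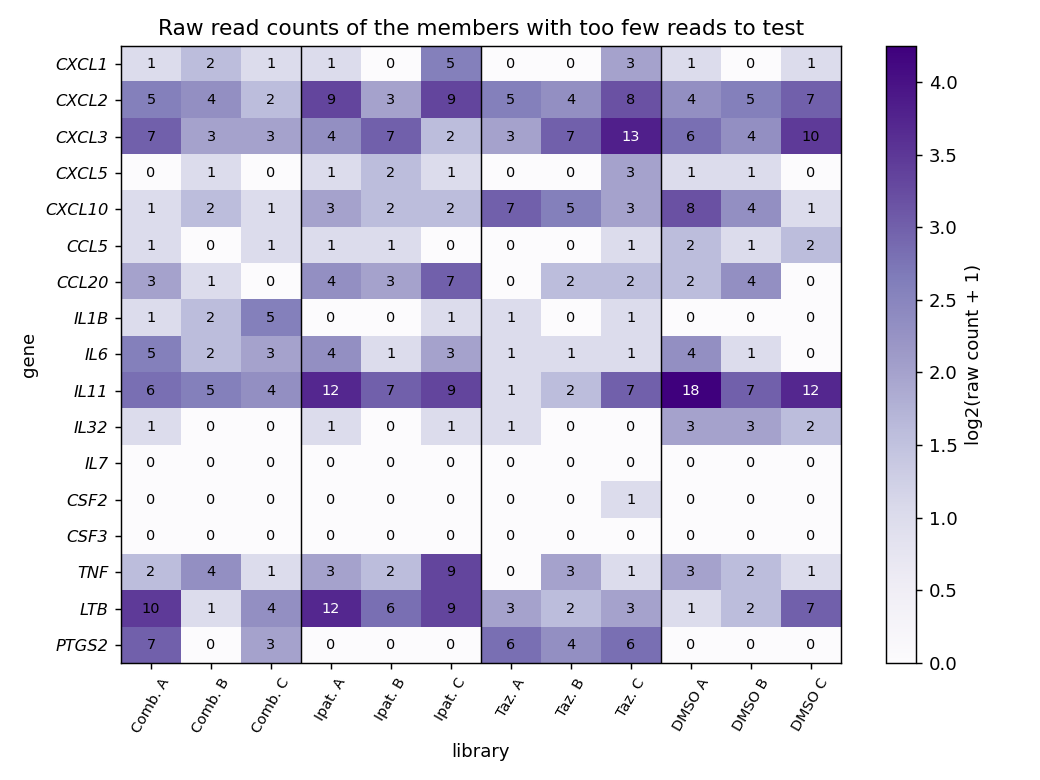
Raw read counts per library of the 17 genes with too few reads to test, with genes down the page, libraries across it grouped as combination, ipatasertib, tazemetostat and DMSO, and colour showing log2 of the count plus 1. PTGS2 reads are found in combination and tazemetostat libraries, and no count exceeds 18.

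Of 33 genes of the upstream signalling chain, 31 were tested. With the combination 8 rose and 7 fell, with ipatasertib 6 rose and 3 fell, and with tazemetostat 6 rose and 2 fell, beside 64.4%, 47.1% and 47.2% of all tested genes called in the same comparisons. NLRP3, an inflammasome sensor, was the one called at 2-fold or more, at 0.400 CPM with the combination, 0.431 CPM with tazemetostat and 0.0123 CPM with DMSO. It passed the filter on low counts only through the combination and tazemetostat libraries, so its calls against DMSO cannot be taken as support. Of 17 negative regulators and co-factors, 16 were tested. With the combination 8 of these rose and 4 fell, with ipatasertib 5 rose and 3 fell, and with tazemetostat 3 rose and 2 fell, beside the same 64.4%, 47.1% and 47.2% of all genes. No gene of either list both changed 2-fold against DMSO and reached 5 CPM.

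Of 22 receptors that act through NF-kB, 15 were tested, and 9 rose and 4 fell with the combination, 4 rose and 2 fell with ipatasertib, and 10 rose and 2 fell with tazemetostat. The shares of all tested genes called were 64.4%, 47.1% and 47.2%. TLR3, the endosomal sensor of double-stranded RNA, averaged 11.2 ± 1.26 CPM with the combination, 2.90 ± 0.298 with ipatasertib, 9.11 ± 1.70 with tazemetostat and 2.36 ± 0.284 with DMSO (SD, n = 3). It rose by a log2 fold change of 2.23 with the combination (adjusted p = 5.05e-11) and of 1.92 with tazemetostat (adjusted p = 1.23e-09), and ipatasertib gave 0.29 (adjusted p = 0.2). IL1R1, the signalling receptor of IL1A and IL1B, averaged 38.6 ± 0.192 CPM with the combination, 15.4 ± 1.22 with ipatasertib, 29.4 ± 0.421 with tazemetostat and 16.0 ± 0.844 with DMSO. It rose with the combination (1.27, adjusted p = 7.02e-12) and with tazemetostat (0.87, adjusted p = 7.63e-09). TNFRSF21, a death receptor, moved mainly with ipatasertib, with 1.13 for the combination (adjusted p = 5.55e-13), 0.95 for ipatasertib (adjusted p = 6.28e-11) and 0.22 for tazemetostat (adjusted p = 0.00521).

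Of 20 receptors of the cytokines and chemokines described here, 12 were tested. With the combination 6 of these rose and 3 fell, with ipatasertib 4 rose, and with tazemetostat 6 rose and 3 fell. Of all genes, 64.4%, 47.1% and 47.2% were called. By at least 2-fold, 5 rose and 2 fell with the combination, beside 1860 and 426 of all 14571 genes. With tazemetostat 3 rose and 2 fell by that much, beside 1245 and 80. The lowest log2 fold changes were -2.58 with the combination and -3.68 with tazemetostat. The receptors that fell 2-fold did not reach the 5 CPM used for naming, so those named below all rose. CSF1R, the receptor of CSF1 and a gene usually read as a macrophage marker, was at 20.4, 17.7 and 19.3 CPM with the combination, 4.44, 5.50 and 4.46 CPM with ipatasertib, 8.59, 8.96 and 8.61 CPM with tazemetostat, against 3.76, 2.86 and 3.22 CPM with DMSO. The 4 groups did not overlap, in the same order as for CSF1. CSF1R rose with the combination (2.53 ± 0.120, adjusted p = 5.42e-14), with ipatasertib (0.53, adjusted p = 0.0032) and with tazemetostat (1.40, adjusted p = 6.59e-09), so ligand and receptor gene both rose in each comparison with DMSO. The leukocyte marker PTPRC averaged 0.601 CPM with the combination and 0.0478 CPM with DMSO (adjusted p = 0.000264). It passed the filter on low counts only through the combination libraries, so this call cannot be taken as support. The part of leukocyte markers was not tested. IL6R, the receptor of interleukin-6, averaged 6.87 ± 0.619 CPM with the combination, 1.64 ± 0.323 with ipatasertib, 4.18 ± 0.296 with tazemetostat and 1.70 ± 0.316 with DMSO. IL6R rose with the combination (2.00, adjusted p = 7.03e-10) and with tazemetostat (1.28, adjusted p = 1.93e-06), and its signalling partner IL6ST rose by 1.12 with the combination (adjusted p = 1.46e-10). The interleukin-6 gene itself gave at most 5 reads in a library.

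**Figure D5:**
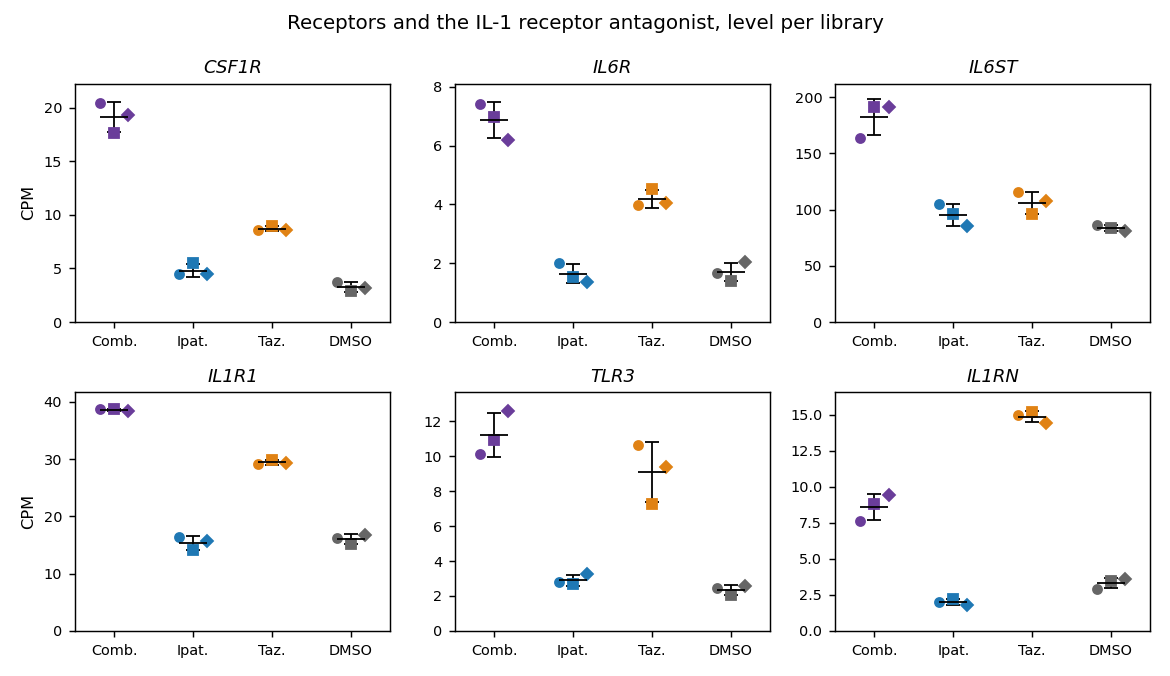
Level in CPM of 5 receptor genes (CSF1R, IL6R, IL6ST, IL1R1 and TLR3) and of IL1RN, the interleukin-1 receptor antagonist, in each library (circle A, square B, diamond C), with the group mean and SD (n = 3), for the combination, ipatasertib, tazemetostat and DMSO. The combination mean is the highest in the 5 receptor panels, and IL1RN is highest with tazemetostat.

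Of 42 further NF-kB target genes, 30 were tested, and 18 rose and 3 fell with the combination, 14 rose and 3 fell with ipatasertib, and 11 rose and 8 fell with tazemetostat. These counts stand beside 64.4%, 47.1% and 47.2% of all tested genes called. Their median log2 fold change was 0.35 with the combination, 0.42 with ipatasertib and 0.06 with tazemetostat. IER3 and CCL22 had their highest level under ipatasertib alone, as did RELB and NFKB2. Unlike IER3 and CCL22, RELB (-0.22, edgeR adjusted p = 0.237) and NFKB2 (-0.20, edgeR adjusted p = 0.0649) were not called with tazemetostat. IER3, an early survival gene, averaged 332 ± 37.1 CPM with the combination, 755 ± 27.9 with ipatasertib, 137 ± 6.03 with tazemetostat and 353 ± 21.3 with DMSO. It rose with ipatasertib (1.10, adjusted p = 1.7e-10) and fell with tazemetostat (-1.36, adjusted p = 2.89e-12), and the combination lay at -0.09 (adjusted p = 0.302). CCL22, a chemokine that draws regulatory T cells, averaged 8.72 ± 1.18 CPM with the combination, 22.5 ± 1.52 with ipatasertib, 5.29 ± 0.441 with tazemetostat and 9.42 ± 0.600 with DMSO, rising with ipatasertib (1.26, adjusted p = 1.81e-09) and falling with tazemetostat (-0.82, adjusted p = 5.4e-06). Others were highest with the combination. TNFSF10, which encodes the death ligand TRAIL, averaged 360 ± 27.6 CPM with the combination, 277 ± 7.05 with ipatasertib, 103 ± 5.36 with tazemetostat and 86.2 ± 5.18 with DMSO, and rose by 2.06 with the combination (adjusted p = 2.85e-16). TNFSF15 (1.65, adjusted p = 5.45e-12) and the autophagy receptor gene OPTN (1.27, adjusted p = 3.52e-13) also rose with the combination. IL1RN, which encodes the antagonist of IL1R1, was highest with tazemetostat, at 14.9 ± 0.375 CPM, against 8.62 ± 0.894 CPM with the combination, 2.00 ± 0.187 with ipatasertib and 3.33 ± 0.371 with DMSO. It rose with tazemetostat (2.16, adjusted p = 1.16e-12) and with the combination (1.37, adjusted p = 5.42e-09) and fell with ipatasertib (-0.74, adjusted p = 0.000492). IL8, the best known target among the CXC chemokines and named here after its values were seen, averaged 3.67 ± 0.784 CPM with the combination, 4.18 ± 1.37 with ipatasertib, 1.54 ± 0.467 with tazemetostat and 1.49 ± 0.303 with DMSO. It rose with the combination (1.30, adjusted p = 0.000161) and with ipatasertib (1.48, adjusted p = 3.03e-05).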

How the data were processed

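MDA-MB-468 poly(A) RNA was read in 12 libraries, 3 in each of 4 groups. The authors deposited whole read counts by gene symbol, 1 table per library. Per the labels, the extraction used RNeasy Plus and library preparation used Kapa Hyper Prep. Per the submitters' processing notes, the tools were DESeq2, HTSeq, SAMtools and STAR and the build was hg19, with no versions. Whether reads were counted by strand is not given in the sources at hand, so genes that overlap another gene or an antisense transcript are uncertain. A deposited table of normalized values was not used here.

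The 5 closing lines of each count table that name no gene stayed out of library sizes and tests. Of 23228 genes, 3351 had no read. The counts went through edgeR 4.0.16 (R 4.3.3). filterByExpr with a minimum count of 10 kept 14571 genes. TMM factors were used, and 1 model with a mean for each of the 4 groups, leaving 8 residual degrees of freedom, was fitted to the 12 libraries. Robust quasi-likelihood F-tests were adjusted by Benjamini-Hochberg, with a threshold of 0.05. CPM use the TMM-scaled totals and are not corrected for gene length. The interaction is combination minus ipatasertib minus tazemetostat plus DMSO. Floors are 3 counts over a group, and ratios of low counts carry 95% exact counting intervals. The procedure was tested on simulated counts. The alternatives tried were library totals or RLE factors in place of TMM, DESeq2 1.42.0, filters of no minimum or of 50 counts in 3 libraries, only the groups compared, a block for the replicate letter, and fits that left out each library or all A libraries.

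The members and the other gene lists were chosen with earlier results of these data known. All 40 members are accounted for. Values in every library are printed for members called with a log2 fold change of at least 1 in size and 5 CPM in the highest group and for the REL and IkB genes. Genes of the other lists are named where they were called against DMSO at that size and level, at most 6 per list. Promoters are 250 bases from RefSeq (GRCh38.p14), matched by symbol. The kappaB consensus, a degenerate motif, was searched on both strands.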

Additional observations from a re-analysis of the deposited data

Results flagged for a closer look

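The difference between the tazemetostat effect with and without ipatasertib was tested as an interaction, and 2 of the 23 tested genes passed, beside 12% of all tested genes. NFKBIZ had an interaction of 0.81 on the log2 scale (edgeR adjusted p = 0.00108): it differed by 0.13 between the combination and ipatasertib, and by -0.68 between tazemetostat and DMSO. IL18 had an interaction of 0.43 (edgeR adjusted p = 0.0332): it differed by 0.65 between the combination and ipatasertib, and by 0.22 between tazemetostat and DMSO.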

How the results depend on the processing

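No member reversed its direction of a call under the alternatives run, and member counts in the 5 comparisons of groups stayed within 1.5 times the values given above. The interaction did not. Its count of 2 positive members was 1 with the replicate block and 4 without the A libraries, and 1 to 4 with single libraries left out. Its count of 0 negative members was 2 with library totals, 1 with DESeq2, 1 with no filter and 5 without the A libraries, and 0 to 5 with single libraries left out. BIRC3 was added to the positive members with RLE factors, DESeq2 and no filter. Over all genes, 1744 interaction calls were 1012 with the replicate block and 5447 without the A libraries, and 637 to 3689 with single libraries left out. With library totals in place of TMM, tazemetostat gave 4573 genes higher and 2159 lower, against 3775 and 3099, and the interaction gave 694 and 1369, against 869 and 875. The cause was not tested. Members called in all 12 leave-one-out fits numbered 15 of 17 for the combination, 11 of 16 for ipatasertib, 8 of 10 for tazemetostat, 11 of 13 for the combination against ipatasertib, 11 of 14 for the combination against tazemetostat, and 1 of 2 for the interaction.

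Whether the letters pair the libraries is unclear for ipatasertib and DMSO. Over 14571 genes, same-letter deviations correlated above 0.1 in 1 of 3 pairs, with the own letter the best match in 2. Over the 11068 genes with 50 counts in every library, a check added after seeing the data, 3 of 3 pairs did (0.103 to 0.416), with the own letter the best match in 1. With either gene set, 1 of 3 pairs of the combination and ipatasertib passed and none of the other comparisons. The letters were not taken as pairs. The replicate block ended the calls of NFKB2, NFKBIB and TNIP1 for the combination against tazemetostat (adjusted p = 0.0636, 0.0557 and 0.0601), of RELA and TNFAIP3 for ipatasertib (0.0799 and 0.0535) and of IL18 for the interaction (0.0648). Genes at a few reads are limited by depth, most in the combination libraries.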
